A study of Mus musculus with 2 samples.

Results

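The enzymes that build cholesterol and fatty acids, with the proteins that control them through SREBP, the sterol regulatory element binding protein, were compared between primary and self-renewing mouse macrophages. The 37 genes were chosen by their place in these pathways and with earlier results of the same 2 arrays known, so their differences are given as a description. Of the 37 genes, 36 had a probe matched by its transcript accession, among 22910 named genes on the array, and all 36 were detected, that is, marked as well above background by the scanner software, on 1 array or both. The other one, Acat2, has no signal here and entered only the search of promoter sequences.

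Both cell types came from the bone marrow of C57BL/6 mice, labelled male, and were grown with 100 ng/ml recombinant human M-CSF, the growth factor of macrophages, and 10% fetal calf serum. Primary macrophages were the adherent cells of a culture at day 5, a stage the methods give as 5 to 7 days, and self-renewing macrophages were bulk cells, not a clone, that had gone through 4 passages. Total RNA of each was labelled with Cy3 and hybridised to 1 Agilent mouse expression array, and the 2 arrays together make up the series. With 1 array per cell type there was no replicate check of any difference, and no test was made.

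SREBPs are transcription factors held in the membrane of the endoplasmic reticulum. When sterols run low, the escort protein Scap carries them to the Golgi, where proteases release the part that enters the nucleus and switches on lipid synthesis, whereas Insig proteins hold Scap back when sterols are plentiful. The product of Srebf2 is known mainly for genes of cholesterol synthesis and that of Srebf1 for genes of fatty acid synthesis, and macrophages, which take in cholesterol with the cells they engulf, adjust the pathway to that load.

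Values are log2 signals, that is, log2 of the background-corrected intensity less the 75th percentile of the array's gene probes, an intensity of 434 for primary and of 446 for self-renewing macrophages. A difference is the self-renewing minus the primary log2 signal of 1 probe, so that -1 means a signal 2-fold lower in the self-renewing macrophages. Among the genes of the pathways, signal levels of different genes were not compared. Signals of different probes entered together in the choice of the brightest probe of a gene. They were also summed over cell markers, where bright probes weigh most. "Rose" and "fell" are used for differences of at least 2-fold. The scanner's own error for a difference of a member was 0.20 to 0.21 on the log2 scale, and different probes for the same gene, over 5077 genes, varied by a root mean square SD of 0.33. Where only 1 array detected a gene, a bound is given in place of a difference, computed against the dimmest detected signal of the other array, or against the probe's own signal if that was higher. The labels and the data disagreed on sex. Of 6 Y-linked genes, 0 were detected in the primary and 4 in the self-renewing macrophages. Xist, the RNA that coats the silenced X chromosome, was detected in the primary macrophages alone. The part of sex or of animal in any difference therefore cannot be told apart from that of cell type. In RNA of bulk cultures, fewer cells of a type and less RNA per cell cannot be told apart.

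Lipid synthesis genes were mostly lower in the self-renewing macrophages. Of the 36 members, 30 were lower and 6 higher. The signal of 22 members fell at least 2-fold, that of 0 rose at least 2-fold, and the median difference was -1.18, or 2.27-fold lower. Among all 15516 named genes above background, 52.0% were lower, 8.38% were at least 2-fold lower and 4.76% at least 2-fold higher, with a median difference of -0.02. Of the 18 genes of the mevalonate and sterol steps 14 fell, the largest differences were those of fatty acid desaturases and an elongase, and the regulators were divided. Of the 34 differences measured on both arrays, the smallest was 0.36 in size, by the probe that stands for its gene. Other probes of Ggps1, Insig2 and Lpin1 gave smaller ones. The SD between probes, 0.33, describes spread on the same 2 arrays and not between replicates. The scaling matters to the number past 2-fold. With the authors' own scaling, which lifts every difference by 0.19 and the median of all genes to 0.17, 18 members fell at least 2-fold, and Me1 was past 2-fold in the other direction.

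**Figure D1:**
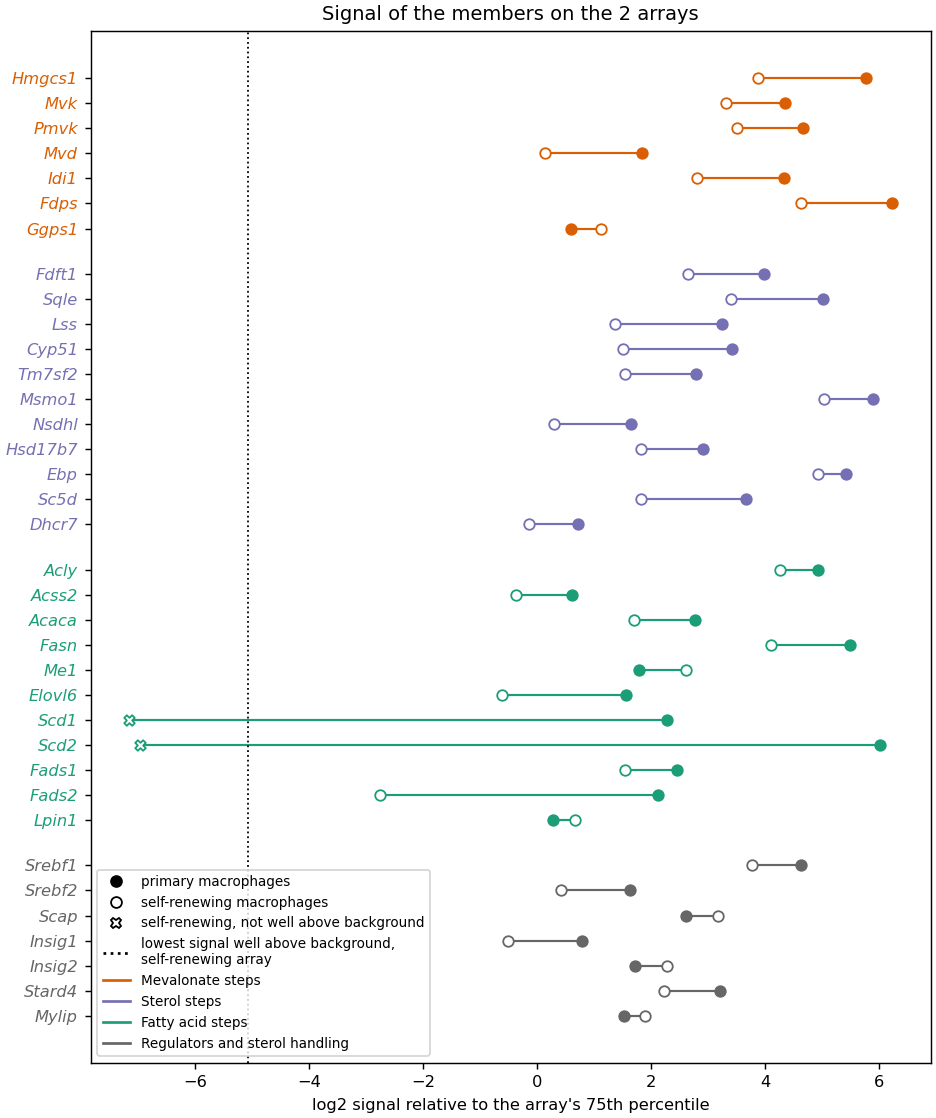
Log2 signal relative to the array's 75th percentile (x axis) of the 36 members (y axis, in pathway order) in primary (filled points) and self-renewing macrophages (open points), with crosses for signals not well above background and a dotted line at the lowest detected signal of the self-renewing array. The open point lies left of the filled point for 30 members, farthest for Scd1 and Scd2, and right of it for Ggps1, Me1, Lpin1, Scap, Insig2 and Mylip.

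SREBPs bind short sterol regulatory elements close to start sites, together with NF-Y, which binds the CCAAT box, and Sp1, which binds GC boxes. Promoter windows of 300 bases, 250 before and 50 after the start site, were taken from RefSeq for GRCm38.p6 and searched on both strands for 4 motifs, a gene being counted where the window of any of its start sites held one. Of the 37 members, 30 had an entry, and Fdps, Fdft1, Sqle, Scd1, Scd2, Fads1 and Stard4 had none. The core TCACNCCA was found for 3 of the 30, Hmgcs1, Msmo1 and Srebf2, or 10.0%, against 4.36% of all 32851 windows and 4.74% of 12337 genes above background. The CCAAT box was found for 24 of the 30, or 80.0%, against 37.4% of all windows and 42.6% of genes above background. It did not separate the members by size of difference, being found for 14 of 17 that fell at least 2-fold and for 10 of 12 others with a value. The GC box GGGCGG was found for 24 of the 30, against 35.7% of all windows and 7404 of the 12337 genes above background. The E-box CACGTG was found for Hsd17b7, Sc5d, Dhcr7, Scap and Insig1, or 16.7% of the 30. Its shares elsewhere were 7.15% of all windows and 10.7% of genes above background. A match describes letters, not binding. The 250 bases before the start are shown for the 3 members with a TCACNCCA core, and for Fads2, which had the largest difference measured on both arrays and neither a core nor a CCAAT box. Capitals mark the TCACNCCA core and the CCAAT box on either strand, and each is written 5′ to 3′ on the strand of the gene, for Hmgcs1 chr13:119690101-119690350 on the plus strand, for Msmo1 chr8:64733579-64733828 on the minus strand, for Srebf2 chr15:82147019-82147268 on the plus strand and for Fads2 chr19:10101504-10101753 on the minus strand.
Hmgcs1: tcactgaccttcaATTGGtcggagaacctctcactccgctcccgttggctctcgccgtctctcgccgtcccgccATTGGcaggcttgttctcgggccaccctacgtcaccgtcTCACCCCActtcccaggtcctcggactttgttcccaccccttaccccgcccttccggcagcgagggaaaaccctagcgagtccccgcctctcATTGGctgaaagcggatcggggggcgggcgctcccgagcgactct
Msmo1: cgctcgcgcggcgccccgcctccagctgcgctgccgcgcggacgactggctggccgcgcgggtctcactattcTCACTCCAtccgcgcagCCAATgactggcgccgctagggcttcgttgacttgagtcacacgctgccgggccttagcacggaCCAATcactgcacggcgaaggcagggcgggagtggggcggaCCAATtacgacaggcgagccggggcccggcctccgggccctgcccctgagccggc
Srebf2: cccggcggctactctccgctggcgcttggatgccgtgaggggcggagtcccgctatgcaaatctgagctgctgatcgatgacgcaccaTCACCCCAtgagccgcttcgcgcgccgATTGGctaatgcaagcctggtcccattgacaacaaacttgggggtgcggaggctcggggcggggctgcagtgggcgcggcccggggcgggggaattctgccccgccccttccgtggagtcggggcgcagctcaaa
Fads2: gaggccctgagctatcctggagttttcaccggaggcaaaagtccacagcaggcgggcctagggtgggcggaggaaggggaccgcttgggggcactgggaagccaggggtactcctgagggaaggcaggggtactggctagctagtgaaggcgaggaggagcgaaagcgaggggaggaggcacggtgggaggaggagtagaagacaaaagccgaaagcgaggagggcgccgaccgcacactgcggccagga

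The mevalonate steps turn acetyl-CoA into the isoprenoid farnesyl pyrophosphate. Of 7 genes, 6 fell and 1 was higher, with a median difference of -1.53. Hmgcs1, which makes HMG-CoA and has a TCACNCCA core at position -137, had a log2 signal of 5.77 in the primary and 3.87 in the self-renewing macrophages, a difference of -1.90, or 3.73-fold lower. Mvk, the mevalonate kinase, stood at 4.34 and 3.30, a difference of -1.04, and its other probe gave -0.89. Pmvk, which adds the next phosphate, stood at 4.66 and 3.51, a difference of -1.15. Both kinases lay close to 2-fold, within the scanner's error of it. Mvd, the decarboxylase that follows them, had a log2 signal of 1.83 in the primary and 0.14 in the self-renewing macrophages, so that it fell by 1.70. Idi1, the isomerase of the isoprenoid unit, stood at 4.33 and 2.80, a difference of -1.53. For Fdps, the synthase of farnesyl pyrophosphate, the signals were 6.23 and 4.63, a difference of -1.60, or 3.03-fold lower. These later enzymes fell further than the kinases. Ggps1, which takes farnesyl pyrophosphate away from sterols to make the geranylgeranyl groups of prenylated proteins, went the other way, from 0.60 to 1.11, a difference of 0.51, and its 5 probes gave differences from 0.08 to 0.51.

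The sterol steps begin with squalene and end in cholesterol. All 11 genes were lower in the self-renewing macrophages, 8 of them at least 2-fold, with a median difference of -1.32. Fdft1, which joins farnesyl units into squalene, had a log2 signal of 3.97 in the primary and 2.65 in the self-renewing macrophages, a difference of -1.32, and its other probe gave -1.30. Sqle, the epoxidase that commits squalene to sterols, stood at 5.02 and 3.40, a difference of -1.62, or 3.07-fold lower. Lss, which closes the rings to lanosterol, stood at 3.25 and 1.37, a difference of -1.88. The 3 probes of Lss spread most among the members, with differences of -1.88, -1.81 and -0.79. Cyp51, the lanosterol demethylase, had a log2 signal of 3.41 in the primary and 1.50 in the self-renewing macrophages, a difference of -1.91, or 3.75-fold lower. Tm7sf2, a sterol reductase, stood at 2.79 and 1.54, a difference of -1.25. Sc5d, which places a late double bond, stood at 3.67 and 1.82, a difference of -1.85. Cyp51, Hmgcs1, Lss and Sc5d had the largest differences of the mevalonate and sterol steps.

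The enzymes that strip methyl groups from the sterol nucleus differed in size. Msmo1, the sterol methyl oxidase, had a log2 signal of 5.90 in the primary and 5.03 in the self-renewing macrophages, a difference of -0.87, which is short of 2-fold, and its promoter holds a TCACNCCA core at position -177. Nsdhl, the decarboxylating dehydrogenase of the same complex, stood at 1.65 and 0.29, a difference of -1.36. Hsd17b7, its ketoreductase, stood at 2.91 and 1.82, a difference of -1.10. Of the remaining enzymes, neither passed 2-fold. Ebp, the sterol isomerase, stood at 5.42 and 4.93, a difference of -0.49, the smallest of the sterol steps. Dhcr7, which reduces the immediate precursor of cholesterol in one of its branches, stood at 0.72 and -0.14, a difference of -0.86. Ebp and Nsdhl lie on the X chromosome, and the part of the sex difference between the cultures in their values was not tested.

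**Figure D2:**
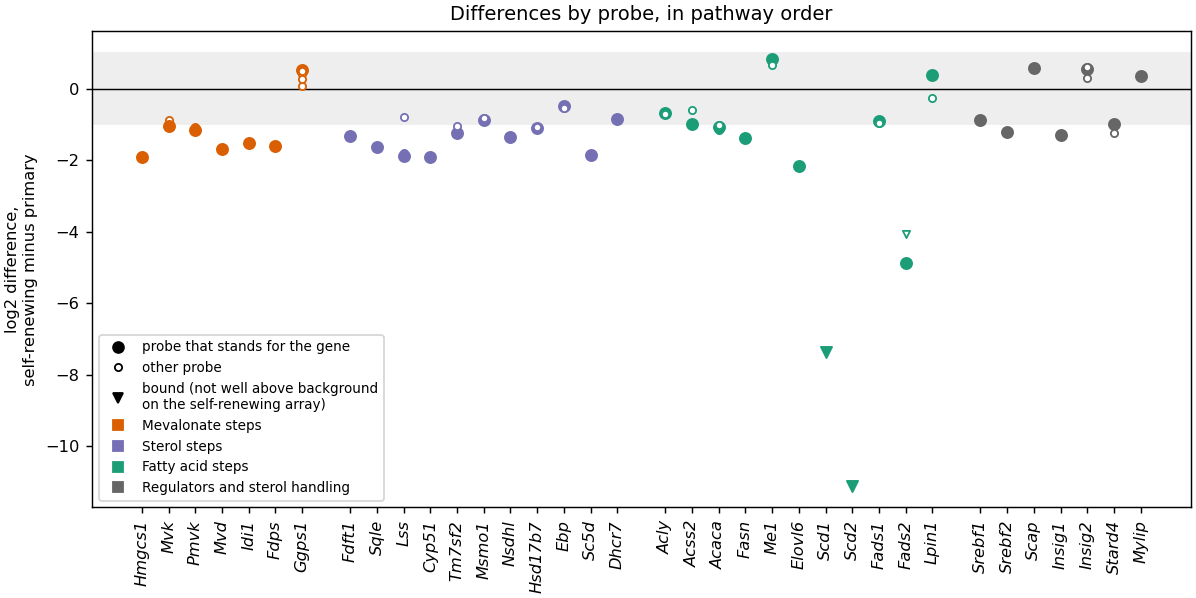
Difference in log2 signal, self-renewing minus primary (y axis), of each probe of the 36 members (x axis, in pathway order), with filled points for the probe that stands for the gene, open points for its other probes, triangles for bounds and a grey band for differences under 2-fold. The 11 sterol genes all lie below 0, the bounds of Scd1 and Scd2 lie at -7.36 and -11.10, and 18 of 19 members with several probes have all of them on the same side of 0.

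The fatty acid steps held the widest range of differences. Of 11 genes, 9 were lower and 2 higher, 6 fell at least 2-fold, and the median difference was -1.07. The first enzymes supply acetyl-CoA. Acly, which splits citrate, had a log2 signal of 4.93 in the primary and 4.25 in the self-renewing macrophages, a difference of -0.68. Acss2, which activates acetate, stood at 0.62 and -0.37, a difference of -0.98, with -0.60 for its other probe. Neither passed 2-fold. Acaca, the carboxylase that makes malonyl-CoA, stood at 2.77 and 1.69, a difference of -1.07. Fasn, the fatty acid synthase, stood at 5.49 and 4.10, a difference of -1.39, or 2.62-fold lower. The synthase thus moved about as far as the median of the sterol enzymes. Me1, the malic enzyme that supplies NADPH, ran against them, from 1.79 to 2.62, a difference of 0.83, with 0.66 for its other probe.

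Chain elongation and desaturation, which follow the synthase, held the 4 largest differences of all members. Elovl6, which lengthens palmitate, had a log2 signal of 1.56 in the primary and -0.61 in the self-renewing macrophages, so that it fell by 2.17, or 4.50-fold. Scd1, a stearoyl-CoA desaturase, had an intensity of 2100 in primary macrophages but of 3.10, not well above background, in self-renewing macrophages. The lowest intensity well above background there was 13.2, and Scd1 was at least 164-fold lower. Scd2, its close relative, is known as the main form in brain and was bright in primary macrophages, with an intensity of 28111, but was not well above background at 3.55 in the self-renewing macrophages, at least 2198-fold lower. Both desaturases were thus detected in the primary macrophages only, each by 1 probe, and whether these probes read only their own gene was not tested. Without them, the median difference of the other 9 fatty acid genes was -0.98 and that of the other 34 members -1.12.

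The desaturases of polyunsaturated fatty acids lie side by side in the genome and differed in size. Fads2, the delta-6 desaturase, had a log2 signal of 2.12 in the primary and -2.76 in the self-renewing macrophages, where it remained above background, a difference of -4.88, or 29.4-fold lower. Its other probe, undetected there, gave a bound of -4.05. Fads1, the delta-5 desaturase, stood at 2.45 and 1.54, a difference of -0.91. Fads1 thus did not pass 2-fold, whereas Fads2 fell on both probes. Lpin1, a phosphatidate phosphatase on the way to triglycerides, stood at 0.28 and 0.66, a difference of 0.38. Its 3 probes did not share a direction, since a dim one gave -0.26.

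The regulators were divided. Of 7 genes, 4 were lower, 2 of them at least 2-fold, and 3 were higher, with a median difference of -0.87. Srebf2, whose own promoter holds a TCACNCCA core at position -162, had a log2 signal of 1.63 in the primary and 0.41 in the self-renewing macrophages, a difference of -1.21, or 2.32-fold lower. Srebf1 stood at 4.63 and 3.76, a difference of -0.87, by a probe whose isoform was not resolved. Scap, the escort of both, stood at 2.61 and 3.17, a difference of 0.56. The precursors and their escort thus differed in direction. Insig1, which retains Scap and is itself an SREBP target, had a log2 signal of 0.79 in the primary and -0.51 in the self-renewing macrophages, a difference of -1.30. Insig2, the form known to be less dependent on SREBP, stood at 1.72 and 2.27, a difference of 0.56, and its 3 probes gave differences from 0.31 to 0.60. The Insig genes therefore went in opposite directions. Stard4, a carrier of cholesterol between membranes and an SREBP target, stood at 3.21 and 2.23, a difference of -0.98, and its other probe gave -1.25. Mylip, a ubiquitin ligase for lipoprotein receptors that is known as a target of LXR, the oxysterol receptor, stood at 1.53 and 1.89, a difference of 0.36.

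Set side by side, the groups overlapped. The 18 genes of the mevalonate and sterol steps ranged from -1.91 to 0.51, with a median of -1.34, and 77.8% of them fell at least 2-fold. The 11 fatty acid genes ranged from -11.10 to 0.83. The median of the mevalonate and sterol steps less that of the fatty acid steps was -0.26, a difference that has no replicate check. Between -2 and 0 lay 17 of the 18 mevalonate and sterol genes and 5 of the 11 fatty acid genes. The 7 regulators ranged from -1.30 to 0.56. Counts near the threshold were not firm, since 4 members that fell (Mvk, Pmvk, Hsd17b7 and Acaca) and 7 that did not pass 2-fold (Msmo1, Dhcr7, Acss2, Fads1, Srebf1, Stard4 and, in the other direction, Me1) lay within the scanner's error of it.

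**Figure D3:**
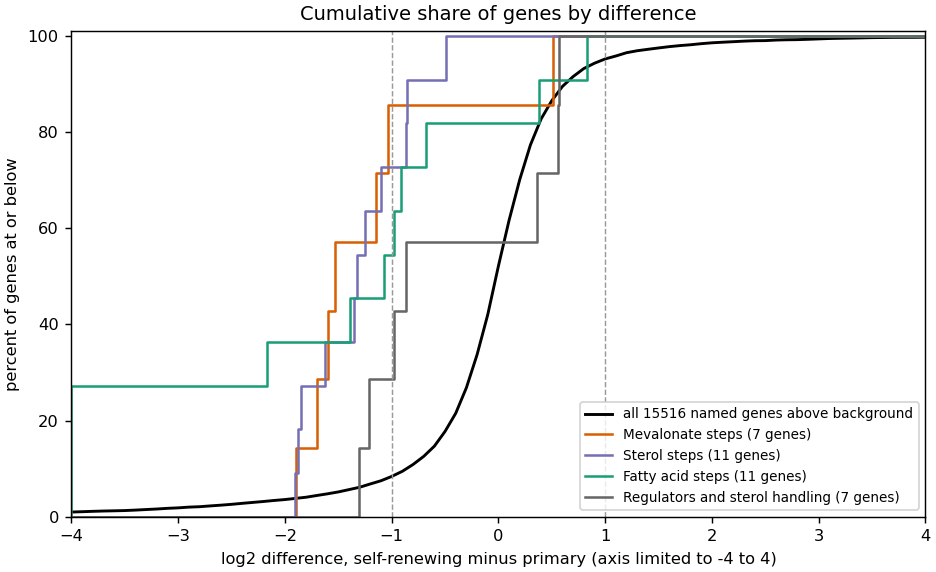
Percent of genes (y axis) at or below each difference in log2 signal, self-renewing minus primary (x axis, limited to -4 to 4), for the 4 groups of members and for all 15516 named genes above background, with dashed lines at 2-fold. The curves of the mevalonate and sterol steps climb to the left of that of all genes, whereas 3 of the 7 regulators lie above 0 and 3 of the 11 fatty acid genes lie beyond the left edge.

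Other genes of the same pathways, from lists written with earlier results of these arrays known, had smaller median differences. Of 15 other sterol and isoprenoid genes, 12 were lower and 3 higher, with a median difference of -0.35. Of these, 2, or 13.3%, fell at least 2-fold, against 8.38% of all named genes above background. Tmem97, a sterol-responsive membrane protein, differed by -1.09, and Aacs, which activates acetoacetate for lipid synthesis, by -1.20. Soat2, which esterifies cholesterol, rose from -1.93 to -0.54, a difference of 1.39, the only one of the 15 past 2-fold upwards. Among all named genes above background, 4.76% were past 2-fold upwards. Of 25 other fatty acid and glycerolipid genes, 23 were above background, 14 of them lower and 9 higher, with a median difference of -0.20. The 4 that fell at least 2-fold, or 17.4% against 8.38% of all genes, were elongases, a desaturase relative and an acyl-CoA synthetase. Elovl7 was above background in primary macrophages only, at least 16.7-fold lower in the self-renewing macrophages. Acsl3, an acyl-CoA synthetase of lipid droplets, fell by 1.86 on the log2 scale. Fads3, of the desaturase family, differed by -1.42, and Elovl5, which lengthens polyunsaturated chains, by -1.05. Relatives of these enzymes did not all share the direction, as Acsl1 differed by 0.89 and Hacd2 by 0.65.

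The machinery around SREBP moved little. Of 18 other genes of its control, 6 were lower and 12 higher, with a median difference of 0.10. The proteases that release SREBP, Mbtps1 and Mbtps2, differed by 0.35 and 0.25. The NF-Y subunits Nfya, Nfyb and Nfyc differed by 0.00, 0.09 and -0.06. Only Nr1h3 of the 18, or 5.56%, passed 2-fold, against 8.38% of all named genes at least 2-fold lower. Nr1h3 encodes LXR alpha, which is known to activate Srebf1 and Scd1. Its log2 signal was 0.98 in the primary and -2.58 in the self-renewing macrophages, a difference of -3.56, or 11.8-fold lower. Its relative Nr1h2, which encodes LXR beta, differed by 0.27.

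Markers of cell types differed in direction from list to list, with median differences from -5.26 for neutrophils to 0.34 for macrophages. All 10 macrophage markers were above background on both arrays, with a summed linear signal, in units of the 75th percentile, of 942 in the primary and 1238 in the self-renewing macrophages. Csf1r, the M-CSF receptor, had log2 signals of 8.04 and 8.42. The 10 did not move alike, as 8 were higher and 2 lower in the self-renewing macrophages. Mertk, a receptor for dying cells, differed by 2.23, Fcgr1, an antibody receptor, by -1.76 and Cd14, a co-receptor for endotoxin, by -0.68. All 8 neutrophil markers above background were lower in the self-renewing macrophages, 7 of them at least 2-fold. Their sum was 119 in the primary and 6.52 in the self-renewing macrophages, where S100a8, S100a9, Ngp and Ltf were undetected. The sum of 6.52 was mostly Elane, which had log2 signals of 3.05 in the primary and 2.58 in the self-renewing macrophages, a difference of -0.47. All 16 markers of dividing cells were lower too, with differences from -1.52 to -0.46 on the log2 scale, 7 of them at least 2-fold, with sums of 502 and 252. The part of neutrophils and of dividing cells in the lower signal of lipid synthesis genes was not tested. Of 8 adipocyte markers, 4 were above background on at least 1 array, at sums of 1.22 and 1.32, and Adipoq and Plin1, which define these cells, were not well above background on either array. Of 8 stromal markers, 3 were above background on at least 1 array, at sums of 9.81 and 8.98. Dendritic cell markers, 4 of 6 above background, had sums of 194 and 206, which were mostly Siglech. Of the 4, 2 were lower and 2 higher in the self-renewing macrophages. Ccr7 and Flt3 were detected in primary macrophages only. Ccr7 was at least 17.7-fold lower in the self-renewing macrophages. Flt3 was close to the lowest detected signal, at -4.67 against -5.20 in the primary macrophages, and at least 1.33-fold lower. Zbtb46, dim on both arrays, differed by 0.62 and Siglech by 0.09. Lymphocyte markers, 4 of 6 above background, had sums of 2.53 and 2.43. Markers of mast cells and basophils, 2 of 5 above background, had sums of 0.232 and 0.209, and erythroid markers, 3 of 5 above background, sums of 1.56 and 0.718.

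The direction of the members was stable over the processing tried. Under 8 alternatives, all 36 members kept their sign wherever they had a value, and the medians of the 4 groups stayed in the same order. Scalings that shift every difference by a constant, at most 0.19, could not change a sign, as the smallest measured difference was 0.36. Changing the background filter left the differences measured on both arrays as they were. The difference between the medians of the mevalonate and sterol steps and of the fatty acid steps ranged from -0.36 to -0.18.

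**Figure D4:**
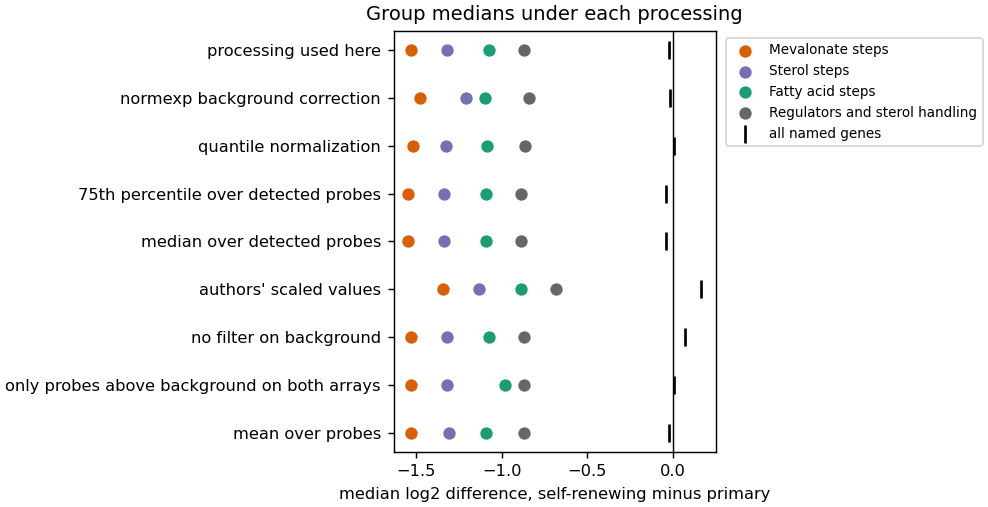
Median difference in log2 signal, self-renewing minus primary (x axis), of the 4 groups of members (coloured points) and of all named genes (black bars) for the processing used here and 8 alternatives (y axis). Every group median lies below 0 and left of the bar of all genes, and with the authors' scaled values points and bar are shifted right together.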

How the data were processed

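The arrays were Agilent SurePrint G3 Mouse Gene Expression 8x60K v2, 1 per cell type. The authors deposited scanner output of Feature Extraction 11.5.1.1, as the file headers name it, with each spot's intensity after background subtraction, not scaled between arrays, and a table of intensity values that equal it times 1 constant per array (1.07 for primary, 1.19 for self-renewing). The normalization is not given in the sources used here. From the background-corrected intensity, log2 was taken here less the 75th percentile of the gene probes on that array. Spots of 1 probe were averaged after 63 outlier spots per array and all control spots had been removed. Accessions named 32988 of 56598 probes through a RefSeq table of GRCm38.p6. Of the 56598, 34808 were well above background on the primary and 33095 on the self-renewing array, and 0 were saturated. The probe brightest on average stands for its gene. Members and lists were chosen with earlier results of these data known. All members are named, and of the other lists the genes past 2-fold. Any further gene named was picked after its values were seen.

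The precision is limited by 1 array per cell type, and no test was made. The alternatives were normexp (offset 50), quantile normalization, the 75th percentile or median over detected probes, the authors' scaled values, no background filter, the mean over probes, and only probes detected on both arrays. The scripts were tested on simulated data. Tools were R 4.3.3 (limma 3.58.1) and Python 3.11.15 (numpy 2.4.6, pandas 2.3.3, matplotlib 3.10.9).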

Additional observations from a re-analysis of the deposited data

How the results depend on the processing

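Over 8 alternatives, the number of members at least 2-fold lower ranged from 18 to 23, with 22 in the processing used here, and the lowest count was that with the authors' scaled values. Those values gave 1 member at least 2-fold higher, Me1, and medians of -1.34 for the mevalonate steps, -1.13 for the sterol steps, -0.89 for the fatty acid steps and -0.68 for the regulators. By construction this scaling adds 0.19 to every difference, the median of all genes included. Of 286 values of single members under the alternatives, 279 lay within the SD between probes of the value in the report, and 0 changed sign. The other 7 belonged to Scd1, Scd2, Fads2 and Lss. Many of the 279 could not have fallen outside that SD. Scalings by a constant shift a difference by at most 0.19, and the filters leave differences measured on both arrays as they were. The mean over probes cannot move the 17 members with 1 probe. With normexp, Scd1 stood at -4.95, Scd2 at -8.58 and Fads2 at -3.88. Without the background filter, which takes signals at background as measured, Scd1 stood at -9.44 and Scd2 at -12.99. With the mean over probes, Fads2 stood at -4.46 and Lss at -1.49. Where probes had to be above background on both arrays, Scd1 and Scd2 had no value. The floor of detection on the self-renewing array limits what can be said of Scd1 and Scd2 to a bound. No paired analysis was possible because there is no second array to pair.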

Other observations

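Genes beside the desaturases were looked up in the order of GRCm38.p6 after the values of Scd1, Scd2 and Fads2 had been seen. Around and between Scd1 and Scd2, 11 genes above background ranged from -0.56 to 0.58, with a median difference of 0.05. Among them were Scd3 and Scd4, of the same family. Scd4, which lies between Scd1 and Scd2, had log2 signals of 3.77 in the primary and 3.92 in the self-renewing macrophages, and Scd3 signals of -0.22 and 0.36. Of the 11, Sec31b was above background in the primary macrophages only, with log2 signals of -4.54 and -4.90. Around Fads1 and Fads2, 10 genes above background ranged from -2.22 to 0.47, with a median difference of -0.03. Best1, a chloride channel of that neighbourhood, had log2 signals of -1.73 and -3.94, a difference of -2.22. Fads3 differed by -1.42 and Fen1, a nuclease of DNA replication, by -1.18.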
